A study of Mus musculus with 6 samples.

Results

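Mitochondrial and peroxisomal beta-oxidation, the pathways that break down fatty acids, are described here through 38 genes chosen by their known function. By their main known location, 20 of them are mitochondrial and 18 peroxisomal. Earlier results of these data were known when the genes were chosen, so the counts below are not independent of that choice. Each gene was taken from the array rows whose platform annotation names that gene alone, and where there were several such rows, from the row with the highest mean over all arrays. This gave a row for 36 of the 38 genes, 19 mitochondrial and 17 peroxisomal, of 22180 genes named on the platform. The rows of Cpt1b, the muscle form of carnitine palmitoyltransferase, and of Acot8, a peroxisomal thioesterase, also name neighbouring genes and were left out. Crat and Phyh had a second, dimmer row.

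Beta-oxidation shortens fatty acids from the carboxyl end and hands the electrons to carriers. In mitochondria, long chains enter through the carnitine shuttle (Cpt1 and Cpt2), are cut by acyl-CoA dehydrogenases, a hydratase, a hydroxyacyl-CoA dehydrogenase and a thiolase, and pass electrons to the respiratory chain through the flavoproteins Etfa, Etfb and Etfdh. Peroxisomes take in very long and branched chains through ABC transporters and cut them with an oxidase, a bifunctional enzyme and a thiolase. The organelle itself is built by the peroxins (Pex genes). White fat stores rather than burns fatty acids, but its adipocytes carry both pathways, and genes of both are known targets of the nuclear receptors PPAR alpha and PPAR gamma.

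RNA of epididymal white adipose tissue (eWAT) was measured on 6 arrays, 3 from wild-type mice (WT 1 to WT 3) and 3 from mice with an adipose-specific Blnc1 transgene (Tg 1 to Tg 3). Blnc1, a long noncoding RNA, was described as a regulator of thermogenic fat. All mice were C57BL/6 males of 8 months fed high-fat diet over 21 weeks, so the genotypes are compared within this diet, with no chow-fed group. The promoter that drives the transgene was not given in the sources used here. The labels call the replicates biological, and each array was taken as 1 mouse. Values are on the log2 scale, where a difference of 1 is a doubling, and array medians lay between 2.64 and 2.75.

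White adipocyte markers were well measured. Over 17 of them the mean level was 9.09 to 9.47 in WT and 9.59 to 9.98 in Tg. Some arrays carried transcripts of the reproductive tract. Over 20 epididymis markers the mean level was 5.49 in Tg 2 and 1.51 to 2.11 in the other 5 arrays. Gpx5, an epididymal peroxidase, read 10.77 in Tg 2, 3.22 in Tg 1 and 0.95 to 1.20 elsewhere. Spink8, an epididymal protease inhibitor singled out after its values were seen, read 6.55 in WT 2, 8.09 in WT 3 and 1.16 to 2.53 in the rest. Results below are therefore also given without WT 2, WT 3 and Tg 2, which leaves WT 1 as the only WT array. Of 12 skeletal muscle markers, 7 were higher and 5 lower in Tg, with a median difference of 0.08. Acta1, skeletal muscle actin, was well above the array medians (7.49 to 7.99 in WT, 7.92 to 8.55 in Tg, 0.46 ± 0.21, groups overlapping), while Ckm, the muscle creatine kinase, read 2.12 to 3.74 over all arrays (-0.62 ± 0.37) and the other 10 markers read 0.75 to 4.57. The part of muscle RNA in the results was not tested. In tissue RNA, fewer cells of a type and less RNA per cell cannot be told apart.

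Promoter sequences are shown first, as a description. Whether they bear on the differences between the genotypes given below was not tested. RefSeq promoters of build GRCm38.p6 (250 bases before to 50 bases after the start) were found for 30 of the 38 members. Hadha and Hadhb, which encode both subunits of the mitochondrial trifunctional protein, start 273 bases apart on opposite strands, so their windows share 228 bases. The stretches below run 5′ to 3′ on each gene's own strand and end just before its start site. They are the stretch before Hadha, most of which lies in the Hadhb window too (chr5:30154981-30155230, minus strand), and the stretches before Hadh (chr3:131272102-131272351, minus strand), Ehhadh (chr16:21787835-21788084, minus strand) and Pex11a (chr7:79743132-79743381, minus strand), chosen after their values were seen as members with large differences. Capitals mark the GC box GGGCGG or its reverse complement.
Hadha: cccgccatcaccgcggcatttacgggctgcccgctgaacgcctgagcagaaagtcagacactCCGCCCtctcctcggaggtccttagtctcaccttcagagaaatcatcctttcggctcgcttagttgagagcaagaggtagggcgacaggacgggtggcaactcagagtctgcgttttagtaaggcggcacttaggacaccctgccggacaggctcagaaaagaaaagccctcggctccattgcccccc
Hadh: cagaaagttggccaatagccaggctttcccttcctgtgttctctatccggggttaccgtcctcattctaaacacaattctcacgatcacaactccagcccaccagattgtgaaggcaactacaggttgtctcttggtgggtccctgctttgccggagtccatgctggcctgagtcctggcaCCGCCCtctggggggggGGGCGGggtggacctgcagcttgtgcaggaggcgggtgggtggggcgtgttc
Ehhadh: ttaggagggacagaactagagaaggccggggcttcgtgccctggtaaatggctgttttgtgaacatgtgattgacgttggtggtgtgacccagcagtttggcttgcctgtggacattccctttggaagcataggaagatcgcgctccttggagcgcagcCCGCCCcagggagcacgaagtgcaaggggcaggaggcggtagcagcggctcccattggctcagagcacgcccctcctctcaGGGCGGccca
Pex11a: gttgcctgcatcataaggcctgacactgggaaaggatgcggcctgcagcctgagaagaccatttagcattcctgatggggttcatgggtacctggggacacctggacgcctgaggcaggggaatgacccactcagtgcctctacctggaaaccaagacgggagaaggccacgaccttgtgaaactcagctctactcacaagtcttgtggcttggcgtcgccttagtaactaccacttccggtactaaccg

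The GC box on either strand was found in the windows of 22 of the 30 members, 12 of 16 mitochondrial and 10 of 14 peroxisomal, against 38.2% of all 27025 genes with a promoter in the table and 49.2% of the protein-coding ones. In Pex11a the match lies after the start site, so its stretch has no capitals. The CCAAT box was found in 13 of the 30 and in 41.1% of all genes. The PPAR element is a direct repeat of the core AGGTCA with a single base between the copies, AGGTCANAGGTCA, searched on both strands. It was found without mismatch in 0 of the 30 members and in 0.0481% of all genes. With up to 2 mismatches it was found in the windows of Echs1 and Etfa and in 4.4% of all genes. Both sites are shown with 8 flanking bases on each side, the site in capitals, at chr7:140116484-140116512 (minus strand) and chr9:55512300-55512328 (minus strand, where the repeat reads on the opposite strand of the gene).
Echs1: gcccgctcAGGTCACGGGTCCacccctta
Etfa: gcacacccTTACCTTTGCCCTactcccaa

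The core AGGTCA alone was present in 6 of the 30 (18.1% of all genes), and TNAAGGTCA, the extended core of the estrogen-related receptors, in 0 of the 30 (1.43% of all genes). The GC-rich box was thus the motif whose share among the members lay farthest above its share among all genes. Hadha and Hadhb, whose windows overlap, were counted separately. The median GC content was 58.3% in the member promoters and 52.7% in all promoters, and the part of base composition was not tested. These are matches of letters in a window of 300 bases, and elements farther from the start were not searched.

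Compared by genotype, beta-oxidation genes read higher in Tg by a modest amount, and no member passed the test. In the deposited scaling 35 of the 36 members had a higher mean in Tg, 36 with each array centred on its median and 34 after cyclic loess, where 47.2% of all rows, 44.3% of rows with a mean above 5 and 50% of all genes were above 0 as deposited. The share of all rows above 0 was 60.2% with median centring and 49.0% after cyclic loess. The members were chosen with earlier results of these data known. Of further genes in the same pathways, 17 of 24 mitochondrial and 22 of 33 peroxisomal ones were higher as deposited. The median difference of the members was 0.22 on the log2 scale (interquartile range 0.13 to 0.32), against 0.00 for all genes. The largest within each compartment were those of the peroxisomal genes Acaa1b (0.61), Ehhadh (0.59) and Pex11a (0.47), and of the mitochondrial genes Decr1 (0.38) and Hadh (0.36).

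With limma, 0 of 36 members had an adjusted p at or below 0.05, as did 0 of all 41345 rows (0%). The members' adjusted p lay between 0.34 and 0.98. At an unadjusted p under 0.05 there were 10 members, 5 mitochondrial and 5 peroxisomal, all higher in Tg, where 4.43% of all rows and 5.31% of all genes were higher at that p and 5.88% of all rows were lower. That count was 2 without WT 2, 2 without WT 3, 2 without Tg 1 and 2 without Tg 3. It was 13 without WT 1 and 14 without Tg 2. With each array centred on its median it was 18, where 6.99% of all rows were higher at that p. With the replicate number as a block it was 6. All rows at that p, in either direction, numbered 4263 as deposited, 3104 to 5089 leaving out 1 array and 4034 with the block. In 16 members the groups did not overlap and Tg was higher, against 7.36% of all rows, 11.2% of rows with a mean above 5 and 8.85% of all genes. In 0 members was the order the other way, against 9.35% of all rows. The count of 16 was 27 without Tg 2 and 24 without WT 1, settings with fewer arrays to be apart, where 16.4% of all genes were apart and higher in each. The SE of a member's difference was between 0.09 and 0.22.

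**Figure D1:**
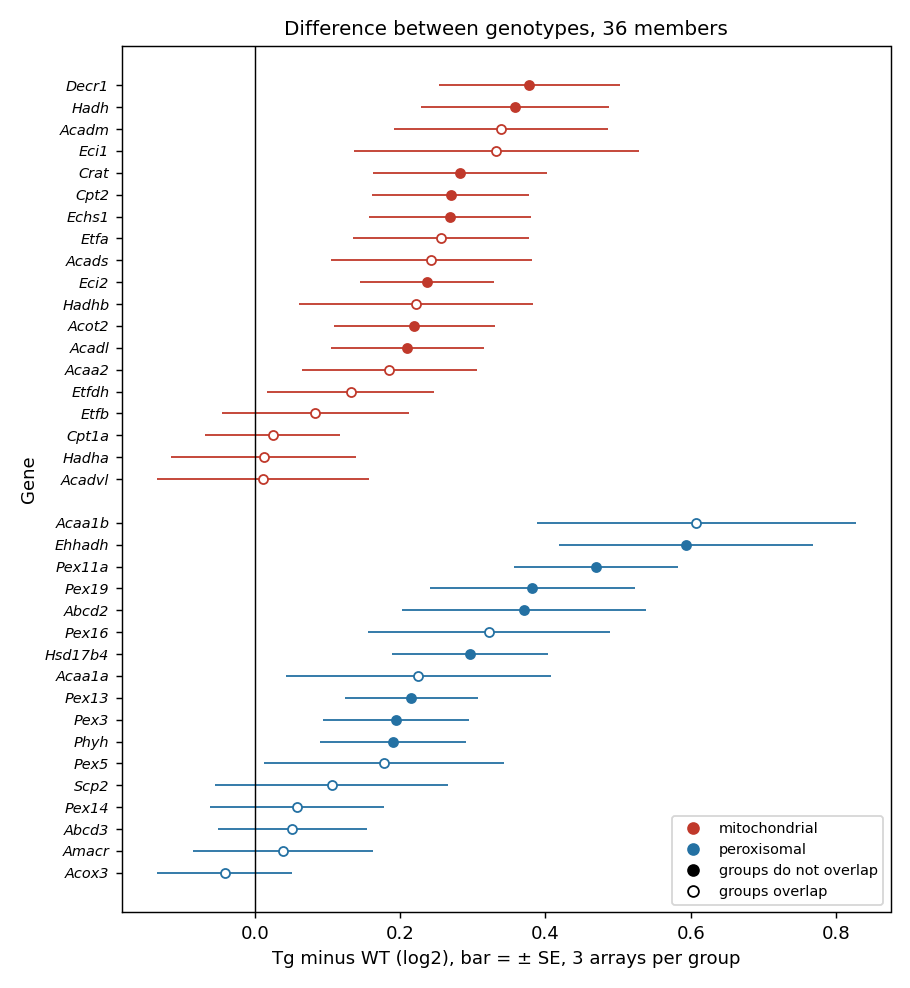
Difference between Tg and WT on the log2 scale (x axis) for each of the 36 measured members (y axis), with bars of ± 1 SE of the limma fit on 3 arrays per group. Filled points mark the 16 members whose groups did not overlap, and only Acox3 lies below 0, at -0.04.

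Carnitine carries long-chain acyl groups across the mitochondrial membranes. Cpt1a, the outer-membrane enzyme that limits entry, read 9.74, 9.74 and 9.65 in the WT arrays, in the order of their numbers, and 9.69, 9.80 and 9.72 in the Tg arrays, an order kept below. The groups overlapped and the difference was 0.02 ± 0.09 (SE), with a 95% interval from -0.20 to 0.25. Cpt2, the inner-membrane enzyme that returns the acyl group to CoA, read 7.71, 7.56 and 7.53 in WT and 7.98, 7.76 and 7.86 in Tg. The groups did not overlap, and Tg was higher by 0.27 ± 0.11 on average (1.21-fold, adjusted p = 0.47).

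Crat, carnitine acetyltransferase, which buffers acetyl-CoA in mitochondria and peroxisomes, read 9.02, 8.72 and 8.70 in WT and 9.13, 9.03 and 9.11 in Tg. WT 1 was close below the Tg arrays, and the difference was 0.28 ± 0.12 (adjusted p = 0.49). Its dim second row, at 3.46 to 4.30, overlapped between the groups and differed by 0.19 ± 0.21.

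The acyl-CoA dehydrogenases open the cycle and differ in the chain length they prefer. Acadm, for medium chains, read 10.64, 10.50 and 10.35 in WT and 10.98, 10.58 and 10.94 in Tg. Tg 1 and Tg 3 were above all WT arrays while Tg 2 lay below WT 1, and the difference was 0.34 ± 0.15 (adjusted p = 0.50). Acadl, for long chains, read 10.21, 10.33 and 10.06 in WT and 10.43, 10.37 and 10.42 in Tg, so the groups were apart by a narrow margin, with a difference of 0.21 ± 0.11 (adjusted p = 0.55). For Acads, the short-chain enzyme, the WT range was 6.74 to 6.94 and the Tg range 6.87 to 7.29, a difference of 0.24 ± 0.14, and 0.13 without Tg 1. Acadvl, the very-long-chain enzyme of the inner membrane, differed by 0.01 ± 0.15: Tg 1, at 7.42, was the highest array and Tg 2, at 6.93, the lowest. Its sign was negative when Tg 1 was left out (-0.13).

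The next steps hydrate, oxidise and cleave the chain. Hadh, the hydroxyacyl-CoA dehydrogenase of the matrix, read 9.95, 9.71 and 9.60 in WT and 10.24, 10.02 and 10.07 in Tg. The groups were apart, by 0.36 ± 0.13 on average (1.28-fold, 95% interval 0.05 to 0.67, adjusted p = 0.44). Echs1, the short-chain enoyl-CoA hydratase, read 7.62, 7.37 and 7.46 in WT and 7.85, 7.74 and 7.67 in Tg, again without overlap, with a difference of 0.27 ± 0.11 (adjusted p = 0.48). Acaa2, the thiolase, overlapped (WT 7.72 to 7.94, Tg 7.88 to 8.16) and differed by 0.19 ± 0.12.

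The trifunctional protein combines these steps for long chains, and its genes share most of the promoter stretch printed for Hadha. Hadha, the alpha subunit, read 10.61, 10.31 and 10.46 in WT and 10.40, 10.38 and 10.64 in Tg, with the highest value of WT next to the highest of Tg. The difference was 0.01 ± 0.13 with a 95% interval from -0.29 to 0.32, and it was -0.01 after cyclic loess. The Hadhb row, for the beta subunit, was dim, at 2.56 to 2.80 in WT and 2.56 to 3.03 in Tg, which is near the array medians. It differed by 0.22 ± 0.16, with Tg 2 as low as WT 1. Whether a row this dim follows its transcript was not tested.

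Unsaturated fatty acids need auxiliary enzymes to move or remove their double bonds, and here all 3 members were higher in Tg. Decr1, dienoyl-CoA reductase, had the smallest unadjusted p of the mitochondrial members. It read 6.42, 6.24 and 6.13 in WT and 6.77, 6.50 and 6.65 in Tg. The groups were apart, by 0.38 ± 0.12 (1.30-fold, 95% interval 0.08 to 0.68, adjusted p = 0.41). Eci2, an enoyl-CoA isomerase found in mitochondria and peroxisomes, read 6.78, 6.89 and 6.90 in WT and 7.07, 7.13 and 7.07 in Tg. The 3 Tg arrays were close together and above all WT arrays, with a difference of 0.24 ± 0.09 (adjusted p = 0.46). Eci1, the mitochondrial isomerase, depended on Tg 1, which read 7.36 against 6.66 and 6.87 in the other Tg arrays and 6.54 to 6.79 in WT. Its difference was 0.33 ± 0.20, and 0.13 without Tg 1.

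The electron transfer flavoproteins had small differences. Etfa differed by 0.26 ± 0.12 (WT 8.83 to 9.05, Tg 9.02 to 9.31), Etfdh by 0.13 ± 0.11 and Etfb by 0.08 ± 0.13. Groups overlapped in each of the 3, and Etfb turned to -0.07 without WT 2, WT 3 and Tg 2. Acot2, a mitochondrial thioesterase that frees fatty acids from CoA, read 9.63, 9.42 and 9.36 in WT and 9.67, 9.63 and 9.76 in Tg. Tg 2 lay above WT 1 by less than 0.01, and the difference was 0.22 ± 0.11 (adjusted p = 0.55).

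**Figure D2:**
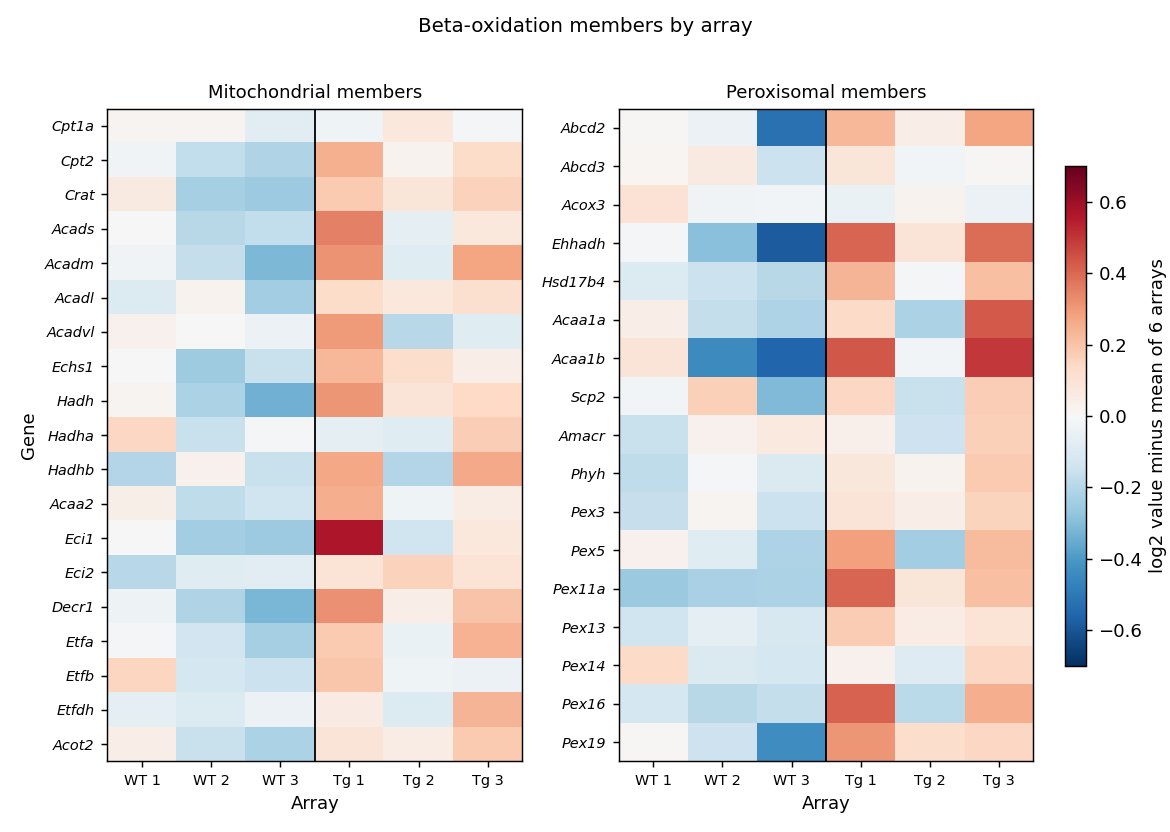
Log2 value of each measured member (y axis) on each array (x axis) minus the gene's mean over 6 arrays, mitochondrial members on the left and peroxisomal members on the right. The columns of Tg 1 and Tg 3 are mostly above the gene means, those of WT 2 and WT 3 mostly below, and Tg 2 and WT 1 lie between.

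Peroxisomal fatty acids enter through ABC transporters of the membrane. Abcd2, the transporter for very long polyunsaturated chains and an adipocyte gene, read 10.50, 10.44 and 9.96 in WT and 10.72, 10.53 and 10.76 in Tg. The groups were apart, WT 3 was the lowest by a wide gap, and the difference was 0.37 ± 0.17 (1.29-fold, adjusted p = 0.52), and 0.20 without WT 3. Abcd3, which carries branched and dicarboxylic chains, overlapped (WT 7.81 to 8.03, Tg 7.95 to 8.05) with a difference of 0.05 ± 0.10.

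The bifunctional enzymes and thiolases held the largest differences of all members. Ehhadh, the bifunctional enzyme that oxidises straight and dicarboxylic chains and a classic PPAR alpha target, read 5.56, 5.27 and 4.99 in WT and 5.97, 5.66 and 5.96 in Tg. All Tg arrays were above all WT arrays, by 0.59 ± 0.17 on average (1.51-fold, 95% interval 0.17 to 1.01, adjusted p = 0.38). Hsd17b4, the bifunctional enzyme for branched chains and bile acid precursors, read 9.44, 9.38 and 9.34 in WT and 9.77, 9.53 and 9.74 in Tg, without overlap. Its difference was 0.30 ± 0.11 (1.23-fold, adjusted p = 0.44).

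Acaa1a and Acaa1b are paralogous thiolase genes with closely related coding sequences, so probes may not separate them fully and their values are uncertain. Acaa1b read 6.03, 5.49 and 5.38 in WT and 6.37, 5.92 and 6.43 in Tg. Tg 2 lay below WT 1 and the difference was 0.61 ± 0.22 (1.52-fold, 95% interval 0.08 to 1.13, adjusted p = 0.44). Acaa1a read 4.95, 4.74 and 4.69 in WT and 5.04, 4.69 and 5.34 in Tg, a difference of 0.23 ± 0.18, with Tg 2 level with the lowest WT array. Without Tg 3 the difference was 0.07. Their promoter windows were 51.8% identical over an alignment of 342 positions.

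Further enzymes of chain shortening differed less. Acox3, an oxidase of branched chains, was the only member lower in Tg as deposited, by -0.04 ± 0.09 (95% interval -0.27 to 0.18), and it was higher by 0.02 with each array centred on its median. Scp2, whose long form is a thiolase for branched chains, differed by 0.11 ± 0.16, and by -0.02 without WT 3. Phyh, the phytanoyl-CoA hydroxylase of alpha-oxidation, read 6.75 to 6.92 in WT and 6.95 to 7.11 in Tg. The groups were apart by a narrow margin between WT 2 and Tg 2, and the difference was 0.19 ± 0.10. The dim second row of Phyh (2.79 to 4.44) overlapped and read 0.71 ± 0.31. Amacr, the racemase that prepares branched chains, differed by 0.04 ± 0.12.

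Peroxins import the enzymes and make the organelle divide, and the 7 among the members were all higher in Tg, with groups apart in 4, where 50% of all genes were higher and 8.85% apart. Of 7 further genes with a Pex symbol outside the member list 4 were higher and 3 lower: Pex2 (-0.25 ± 0.12), Pex26 (-0.14 ± 0.11) and Pex5l (-0.09 ± 0.25). The Pex5l row was dim, at 2.60 to 3.37 over all arrays. Pex11a, which elongates peroxisomes before division and responds to PPAR alpha ligands, had the smallest p of all members. It read 5.80, 5.84 and 5.84 in WT and 6.47, 6.15 and 6.27 in Tg. The WT arrays agreed closely and all Tg arrays were above them, by 0.47 ± 0.11 on average (1.38-fold, 95% interval 0.20 to 0.74). The limma adjusted p was 0.34, and between 0.23 and 0.90 over the alternatives. Pex19, the chaperone and receptor of peroxisomal membrane proteins, read 8.15, 8.00 and 7.71 in WT and 8.45, 8.27 and 8.29 in Tg, a difference of 0.38 ± 0.14 (adjusted p = 0.45) without overlap.

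Pex3, which docks Pex19 at the membrane, read 8.49, 8.67 and 8.49 in WT and 8.74, 8.69 and 8.80 in Tg. Pex13, part of the docking complex for enzyme import, read 5.17, 5.24 and 5.19 in WT and 5.48, 5.36 and 5.40 in Tg. Both were apart, with differences of 0.19 ± 0.10 and 0.22 ± 0.09. Pex16 read 6.20 and 6.04 in Tg 1 and Tg 3 but 5.59 in Tg 2, within the WT range of 5.59 to 5.66, and differed by 0.32 ± 0.17. Pex5, the import receptor (0.18 ± 0.17), and Pex14, its docking partner (0.06 ± 0.12), overlapped.

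Mitochondrial and peroxisomal members were compared as groups, as a description. The median difference was 0.24 over 19 mitochondrial members (19 higher, groups apart in 8) and 0.22 over 17 peroxisomal members (16 higher, groups apart in 8), a gap of 0.02. Of all genes, 50% were higher and 8.85% were apart and higher. The gap was 0.00 after quantile normalization or cyclic loess, and -0.07 without Tg 2. It also depended on the placing of genes known in both compartments. With Eci2 and Crat counted as peroxisomal the gap was -0.0035, and with Eci2, Crat and Amacr left out it was 0.0013. Array by array, the mitochondrial mean minus the peroxisomal mean ranged from -0.04 to 0.06 in WT and from -0.08 to 0.02 in Tg, with a pooled SD of 0.053. By means instead of medians the compartments differed the other way, with mean differences of 0.21 and 0.25 and a gap of -0.04, which is within that SD. The members differed more widely among themselves in the peroxisome, from -0.04 to 0.61, than in mitochondria, from 0.01 to 0.38. Without the peroxins the peroxisomal median was 0.21.

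Averaged over the whole set, the lowest Tg array (Tg 2) lay above the highest WT array (WT 1) by less than 0.01. Relative to each gene's mean, the 36 members averaged -0.02, -0.12 and -0.21 in the WT arrays by number and 0.21, -0.02 and 0.16 in the Tg arrays. WT 1 and Tg 2 were level. Tg 2 was the lowest Tg array in 31 of 36 members (86.1%, against 40.9% of all genes), and it was below WT 1 in 17 (47.2%, against 55.2% of all genes). Tg 1 was above WT 1 in 32 members (88.9%, against 51.1%) and Tg 3 in 31 (86.1%, against 51.3%). WT 3 was the lowest WT array in 22 members (61.1%, against 36.5%).

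White adipocyte markers ranked the arrays the same way within each group. They averaged -0.08, -0.21 and -0.46 in WT and 0.42, 0.04 and 0.28 in Tg, with a median difference of 0.48 over 17 markers, all higher in Tg and 13 with groups apart. Of all genes, 50% were higher and 8.85% were apart and higher. Adipoq, the adiponectin gene, differed by 0.62 ± 0.19. Macrophage markers went the other way, with 14 of 15 lower in Tg, 12 of them with groups apart and a median of -0.28. Of all rows, 9.35% were apart and lower. The remaining macrophage marker, Cd163, was higher in Tg by 0.64 ± 0.14 with groups apart. The mean level of the macrophage markers was 9.35 to 9.49 in WT and 9.15 to 9.19 in Tg. Adgre1, a macrophage surface receptor gene, differed by -0.45 ± 0.11. Mast cell markers were lower in Tg in 8 of 8 (mean level 5.73 to 6.75 in WT, 4.82 to 5.28 in Tg), T and NK cell markers in 9 of 9 with overlapping groups, and endothelial markers were higher in 10 of 10, with a median of 0.39. Without WT 2, WT 3 and Tg 2, 8 of 9 T and NK cell markers were instead higher in Tg, with a median of 0.36, and the endothelial median was 0.16, that of white adipocyte markers 0.33 and that of macrophage markers -0.22. The part of cell composition in the members' differences was not tested.

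**Figure D3:**
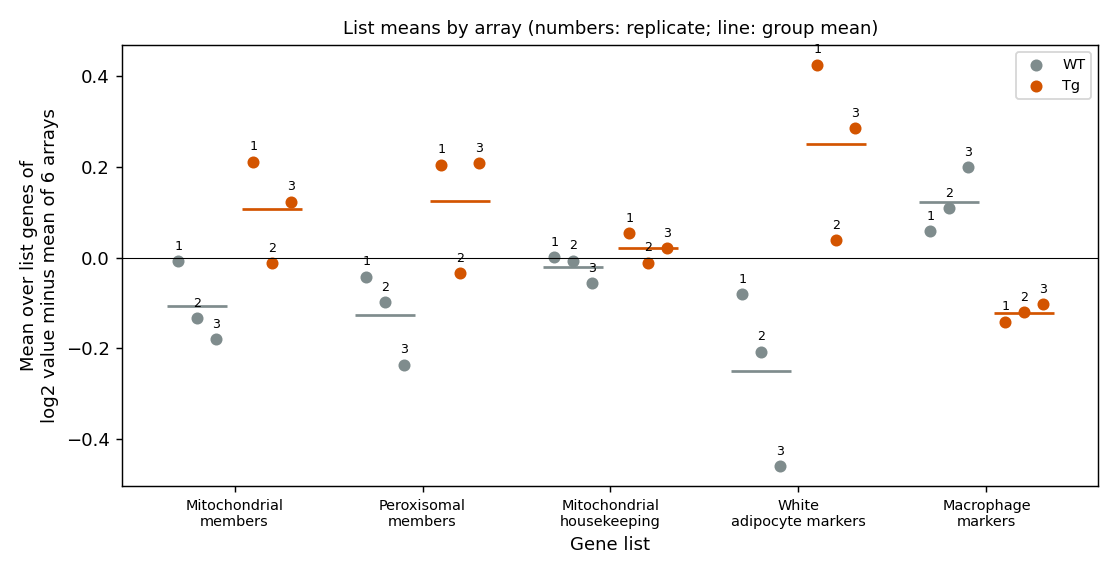
Mean over the genes of each list of the log2 value minus the gene's mean over 6 arrays (y axis), for 5 gene lists (x axis), 1 point per array labelled with its replicate number and a line at each group mean. WT 1 and Tg 2 are level in both member groups, at -0.01 and -0.01 for the mitochondrial and -0.04 and -0.04 for the peroxisomal members, and the macrophage list runs opposite to the others.

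WT 2, WT 3 and Tg 2 had the highest mean levels over the epididymis markers, though Tg 1 also read above WT 1 and Tg 3 for Gpx5. Without WT 2, WT 3 and Tg 2, 31 of 36 members were higher in the mean of Tg 1 and Tg 3 than in WT 1. The median difference was 0.22 (mitochondrial 0.21, peroxisomal 0.26). Pex11a then read 0.57, Ehhadh 0.41, Acaa1b 0.38 and Decr1 0.29, while Hadha read -0.09 and Cpt1a -0.04. These values describe 1 WT mouse.

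Genes of the same pathways outside the member list are given next. Like the members, these lists were chosen with results of these arrays known and are not independent of them. Over 24 further genes of mitochondrial fatty acid handling, 17 were higher and the median difference was 0.13, with 0 past the threshold and 1 at an unadjusted p under 0.05. Of all genes, 50% were higher and 5.31% were higher at that p. The listed gene at that p was Acad11, an acyl-CoA dehydrogenase of long chains, at 8.36, 8.32 and 7.91 in WT and 8.93, 8.43 and 8.69 in Tg (0.49 ± 0.18, adjusted p = 0.45). Acat1, the acetoacetyl-CoA thiolase, differed by 0.27 ± 0.12, and Slc22a5, the carnitine transporter of the plasma membrane, by 0.31 ± 0.16. Lower were Acot9 (-0.24 ± 0.12) and Acot11 (-0.20 ± 0.16), which are thioesterases, and the acyl-CoA synthetase gene Acsl5 (-0.14 ± 0.11).

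Over 33 further peroxisomal genes, 22 were higher and the median was 0.09, with 0 past the threshold. At an unadjusted p under 0.05 there were 5, of which 4 were higher and 1 lower. At that p, 5.31% of all genes were higher and 5.88% of all rows were lower. Pxmp4, a peroxisomal membrane protein, read 9.14, 9.03 and 8.92 in WT and 9.58, 9.61 and 9.57 in Tg. The Tg arrays were close together and all lay above WT, by 0.55 ± 0.10 (1.47-fold, adjusted p = 0.33). Ephx2, the soluble epoxide hydrolase, was higher by 0.65 ± 0.19 with groups apart.

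Ether lipid synthesis begins in peroxisomes, and its genes did not share a direction. Gnpat, the first enzyme, read 7.75, 7.69 and 7.47 in WT and 8.29, 7.92 and 8.20 in Tg (0.51 ± 0.14). Agps, the second, read 7.42, 7.56 and 7.46 in WT and 7.13, 7.17 and 7.34 in Tg (-0.27 ± 0.11). Far1, which supplies the fatty alcohol, was lower by -0.20 ± 0.10. Groups were apart in each of the 3, and 0 passed the threshold with limma. The peroxin Pex2 was also lower, by -0.25 ± 0.12.

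Genes of general mitochondrial content differed less than the oxidation enzymes. Over 22 such genes (import machinery, chaperones, porins and respiratory chain subunits) the median difference was 0.07, with 13 higher and 9 lower and 0 at an unadjusted p under 0.05. Of all genes, 50% were higher and 5.31% were higher at that p. Timm23 (0.22 ± 0.09), Cycs (0.21 ± 0.10) and Hspe1 (0.19 ± 0.10) were at the upper end and Vdac2 (-0.18 ± 0.11), Timm44 (-0.12 ± 0.09) and Vdac3 (-0.11 ± 0.10) at the lower. Without WT 2, WT 3 and Tg 2 the median was 0.02. A difference between this list and the members was not tested.

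**Figure D4:**
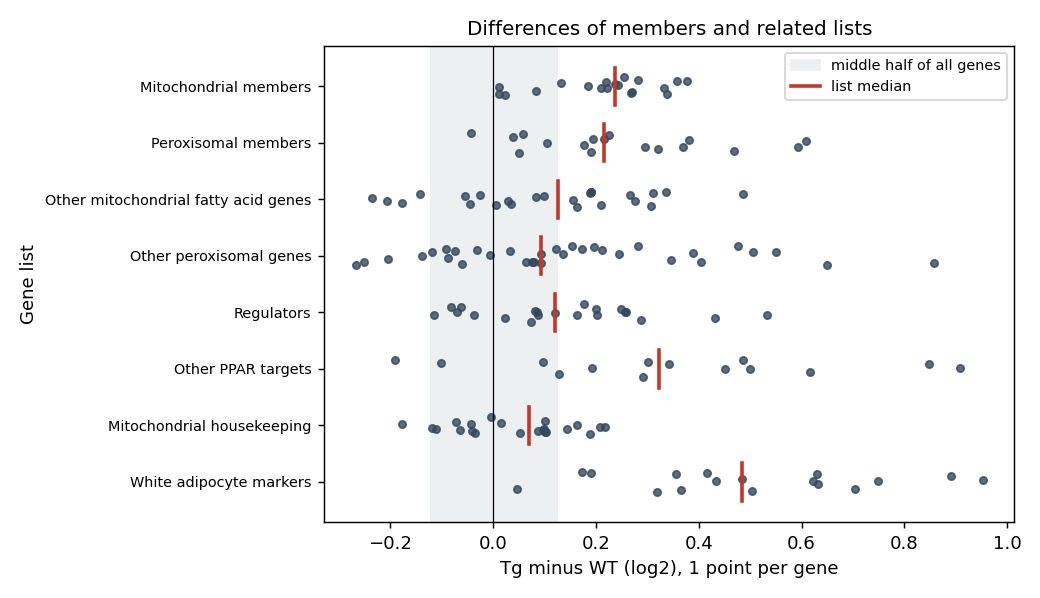
Difference between Tg and WT on the log2 scale (x axis), 1 point per gene, for 8 gene lists (y axis), with a red line at each list's median. The shaded band spans the quartiles of all genes, -0.12 to 0.12, and the medians run from 0.07 for mitochondrial housekeeping genes to 0.48 for white adipocyte markers.

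Of 21 regulators of oxidation, 16 were higher in Tg, where 50% of all genes were, with a median difference of 0.12. With limma 0 passed the threshold, and 2 were higher at an unadjusted p under 0.05, where 5.31% of all genes were. Without WT 2, WT 3 and Tg 2 only 11 of 21 were higher and the median was 0.0089. Pparg, the receptor that defines adipocytes, read 8.89 to 9.06 in WT and 9.08 to 9.38 in Tg, with groups apart and a difference of 0.26 ± 0.12 (adjusted p = 0.52). Ppara was dim (3.04 to 3.59 over all arrays) and overlapped, at 0.25 ± 0.15. Ppard differed by 0.20 ± 0.13, apart by less than 0.01. Of the partner receptors, Rxra (0.08 ± 0.11), Rxrb (0.02 ± 0.12) and Rxrg (0.26 ± 0.27) overlapped, as did Esrra, the estrogen-related receptor of oxidative genes (0.29 ± 0.14).

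The coactivators showed no common direction. Lpin1, which is both a phosphatidate phosphatase and a coactivator of PPAR alpha, read 9.14, 9.05 and 8.86 in WT and 9.54, 9.36 and 9.43 in Tg (0.43 ± 0.11, adjusted p = 0.35), with groups apart. Ppargc1a (0.12 ± 0.18), Ppargc1b (0.09 ± 0.15), Prdm16 (0.07 ± 0.17) and Sirt3 (0.09 ± 0.14) differed by less than their SE, as did Med1 (-0.07 ± 0.09), Nrf1 (-0.08 ± 0.11), Tfam (-0.11 ± 0.18) and, with a sign that turned under median centring, Sirt1 (-0.06 ± 0.09) and Prkaa1 (-0.04 ± 0.10). Prkaa2, a catalytic subunit of AMP kinase, differed by 0.18 ± 0.09 with groups apart.

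Malonyl-CoA blocks Cpt1 and so sets entry into mitochondria. Acacb, the carboxylase that makes it at the outer membrane, read 5.72, 5.17 and 5.22 in WT and 6.03, 5.74 and 5.93 in Tg, apart by a narrow margin between WT 1 and Tg 2, with a difference of 0.53 ± 0.17 (1.45-fold, adjusted p = 0.41). Acaca, the cytosolic form, differed by 0.20 ± 0.15, and Mlycd, which degrades malonyl-CoA, by 0.16 ± 0.11.

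Known PPAR targets outside the member list had a median difference of 0.32 over 14 genes, 12 of them higher, with 0 past the threshold. At an unadjusted p under 0.05 there were 5, all higher, where 5.31% of all genes were higher. Ucp3, a mitochondrial carrier induced by fatty acids, read 5.05, 4.47 and 4.42 in WT and 5.83, 5.27 and 5.56 in Tg, with groups apart (0.91 ± 0.22, 1.88-fold, adjusted p = 0.34). Plin5, which ties lipid droplets to mitochondria, read 5.09, 4.84 and 4.75 in WT and 6.27, 5.36 and 5.59 in Tg (0.85 ± 0.25), and the glycerol channel gene Aqp7 was higher by 0.62 ± 0.16. Plin2, a droplet coat gene, was lower by -0.19 ± 0.10, and Fabp3 differed by -0.10 ± 0.16. The median of this list was 0.11 without WT 2, WT 3 and Tg 2, against 0.22 for the members. Of 10 brown fat markers, 7 were higher in Tg, with a median of 0.12, and 0 passed the threshold with limma. Without WT 2, WT 3 and Tg 2, only 3 of the 10 were higher and the median was -0.18. Ucp1, the thermogenic uncoupling protein, was lower in Tg (4.58, 4.05 and 3.34 in WT and 2.64, 2.34 and 2.35 in Tg). Its groups were apart, with a difference of -1.55 ± 0.30.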

How the data were processed

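The deposited values are log2 expression from Affymetrix arrays, made by the authors with RMA, per the submitters' processing notes, which also name limma. Versions, settings and genome build are not given in the sources used here. The 41345 rows were joined to the platform annotation: 23521 name 1 gene, 1814 several and 16010 none. Cpt1b and Acot8, on rows with several genes, were not analysed. Differences between 3 Tg and 3 WT arrays were tested on all rows with limma 3.58.1 (lmFit, eBayes, two-sided, no block) in R 4.3.3, with Benjamini-Hochberg adjustment over all rows and a threshold of 0.05. Errors are SEs of that fit, whose variances are moderated over all rows, so they can differ from the plain spread of a gene. The p-values set each difference against that moderated spread between these samples. The number of arrays limits the precision: an exact permutation test of 3 against 3 cannot go below 0.1. On simulated data with 41345 rows, the fit called 62 of 100 rows changed by 1 log2 unit, 94 of 100 changed by 2 log2 units and 11 unchanged rows. Those changes exceed the largest difference of a member (0.61), and smaller ones were not simulated. The simulated noise was independent between rows, without differences in tissue content between arrays. Members and lists were chosen with earlier results of these data known. The text names all members, all regulators, and from each other pathway list the 3 genes with the smallest p in each direction, plus Adipoq, Adgre1, Ucp1, Ckm and the highest epididymis gene. Spink8, Acta1, Cd163, Pex26 and Pex5l were named in addition, and their signs were not followed over the alternatives. Alternatives covered scaling, row filters, the variance model, array weights, a replicate block and left-out arrays, and for the compartments the placing of Eci2, Crat and Amacr. Promoters came from RefSeq (GRCm38.p6), and motifs were matched letter by letter on both strands.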

Additional observations from a re-analysis of the deposited data

How the results depend on the processing

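With limma, 0 members and 0 of all rows passed the threshold as deposited and in each of the 16 alternatives. The lowest adjusted p of a member was 0.228 (Pex11a, testing rows above the median of row means). Of 36 members, 27 kept their sign in all 16 alternatives, as did 37 of the other 49 named genes. Over all rows, deviations from the group means correlated by -0.038, 0.007 and -0.043 between same-numbered arrays. With 3 arrays per group this cannot show whether the numbers mark a shared litter or day. A replicate block left the differences as they were and gave 6 members at an unadjusted p under 0.05, against 10.

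That count was 18 with median centring, where 6.99% of all rows were higher at that p. With trend and robust variances it was 17, where 4.72% of all rows were. It ranged from 2 to 14 when 1 array was left out, where 3104 to 5089 of all rows were at that p in either direction. Members with groups apart numbered 29 without WT 2, WT 3 and Tg 2, where 35.3% of all genes were apart and higher, and 16 to 27 leaving out 1 array, where 12.3% to 16.4% were. Leaving out 1 array moved the differences of 18 members by over 1.5 times or across 0, 0 of them among the 10 at an unadjusted p under 0.05. Those 10 were picked on the same arrays for differences large beside their spread, so this is no separate check of them. The peroxisomal median ranged from 0.17 to 0.34 leaving out 1 array. The gap between mitochondrial and peroxisomal medians was -0.051 without WT 2, WT 3 and Tg 2 and -0.069 to 0.061 leaving out 1 array. Rows at an unadjusted p under 0.05 numbered 4263, and 2721 among rows naming 1 gene, 2615 with rows averaged per gene and 2246 without WT 2, WT 3 and Tg 2. Of such rows 43.0% were higher in Tg as deposited, 64.7% with median centring, 54.4% after quantile normalization and 49.8% after cyclic loess. Median centring moved the median of all rows from -0.01 to 0.05. The causes of these moves were not tested.

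Signs turned as follows. With median centring, Acox3 was 0.023, Prkaa1 0.029 and Sirt1 0.0035. Hadha was -0.012 after cyclic loess and Acadvl -0.0020 with array weights. Without WT 2, WT 3 and Tg 2, Cpt1a was -0.039, Etfb -0.070, Hadha -0.092, Pex14 -0.046, Mlycd -0.018, Ppargc1a -0.084, Prdm16 -0.27, Rxra -0.0014, Rxrb -0.16, Sirt3 -0.085, Sirt1 0.0089 and Ckm 0.014. Leaving out 1 array, members crossed 0 within these ranges: Abcd3 -0.011 to 0.095, Acadvl -0.13 to 0.11, Amacr -0.035 to 0.12, Cpt1a -0.0068 to 0.046, Hadha -0.071 to 0.088, Pex14 -0.0007 to 0.14 and Scp2 -0.021 to 0.21. So did the regulators Ppargc1a (-0.053 to 0.25), Ppargc1b (-0.033 to 0.16), Prdm16 (-0.082 to 0.20), Prkaa1 (-0.070 to 0.023), Rxrb (-0.034 to 0.13), Rxrg (-0.0057 to 0.47), Sirt3 (-0.0096 to 0.18) and Tfam (-0.25 to 0.072).

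Rows near the array medians, such as that of Hadhb, limit what a small difference shows.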
